A study of Mus musculus with 12 samples.

Results

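H3K27me3 was compared between GFP+ cortical interneurons (CINs) and GFP- cells (non-CINs) of the same postnatal day 2 mouse cortices, gene by gene. The comparison used the 4 H3K27me3 peak lists, 2 from CINs and 2 from non-CINs, of the 12 samples in the series. For each of 21938 protein-coding genes (mm10, GENCODE vM21), the base pairs under called peaks were summed from 5 kb upstream of the transcription start site (TSS) to the gene end, here called the window. Non-CIN minus CIN differences were taken within each replicate number, and genes were ranked by the held gap, the smaller of both differences where their signs were alike. Of these genes, 8941 held H3K27me3 in at least 1 list, and the other 12997 had no called peak.

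All cells came from *Gad67-GFP* heterozygote pups, whose GFP is driven from the *Gad1* locus and so marks GABAergic cells. The pups, of mixed background outcrossed to CD-1 and of either sex, were pooled over litters for each sample, and both sorted populations carried the same allele. Cells were papain-dissociated and sorted by fluorescence at P2, with no treatment, and chromatin was cut with MNase for native ChIP without crosslinking. The non-CIN fraction is every GFP- cell of the cortex, enriched for glutamatergic projection neurons and glia, and is therefore a mixture. Differences between the sorted fractions can reflect how many cells carry a mark or how much each cell carries, and these cannot be told apart here.

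H3K27me3 is placed by Polycomb repressive complex 2 (PRC2), through its EZH1 or EZH2 subunit, and is found at silent developmental genes, commonly over CpG-rich promoters and sometimes over whole gene bodies. Acetylation of the same lysine, H3K27ac, marks active promoters and enhancers, and a single histone tail cannot carry both. In developing neurons, Polycomb keeps regulators of other lineages silent.

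The H3K27me3 lists held 36662 to 45081 peaks and covered 34.5 and 44.2 Mb in CIN replicates 1 and 2 and 39.4 and 49.8 Mb in the non-CIN replicates, so the non-CIN list was longer in each replicate. The longest peaks spanned 140534 to 151806 bp, and 6292 to 6886 genes held a peak. The numbers of reads behind the lists were not used here, so a value of 0 means that no peak was called. The 4 H3K27ac lists of the same populations covered 40.8 to 56.3 Mb and served as a separate readout, although both marks were called against the same input libraries. Of 10 CIN markers, 8 held more H3K27ac in CINs by the limma test at an adjusted p under 0.05, with summed coverage of 86.9 and 72.6 kb in CINs and 15.8 and 17.0 kb in non-CINs. *Lhx6* had no H3K27ac in any list. All 5 astrocyte markers had more H3K27ac in both non-CIN lists than in both CIN lists, at 74.1 and 78.6 kb against 49.9 and 46.0 kb in sum, with none past the test. The 6 glutamatergic markers did not separate the populations by H3K27ac, at 8.18 and 3.82 kb in CINs and 5.66 and 6.59 kb in non-CINs, and *Slc17a7* and *Neurod2* were at 0 in all 4 lists, and neither did the 5 oligodendrocyte markers, at 16.7 and 19.1 kb against 18.5 and 18.2 kb. Summed H3K27ac of microglial markers was 12.9 and 11.9 kb in CINs and 18.2 and 15.9 kb in non-CINs, with *C1qa* and *Aif1* at 0 throughout, and that of endothelial markers was 13.1 and 7.53 kb against 13.6 and 8.95 kb, with *Kdr* and *Cldn5* at 0. The part these other cells have in the differences was not tested.

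More genes carried extra H3K27me3 in non-CINs than in CINs. With a gap of at least 1 kb in both replicates, 469 genes (5.25% of those with a peak) were higher in non-CINs and 176 (1.97%) were higher in CINs. Counting overlapping windows once left 447 and 167 loci. This balance followed the length of the lists. When each value was scaled to its list's covered length, 296 genes were higher in non-CINs and 564 in CINs, and when all lists were cut to the same covered length by keeping the strongest peaks, the counts were 291 and 314. Of the 469 genes, 293 kept a gap of 1 kb under scaling and 268 under equal length, and of the 176 genes, 176 and 149 did. Without the pairing of replicates, asking that the lower value of one population exceed the higher value of the other by 1 kb, 166 and 75 genes remained.

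**Figure D1:**
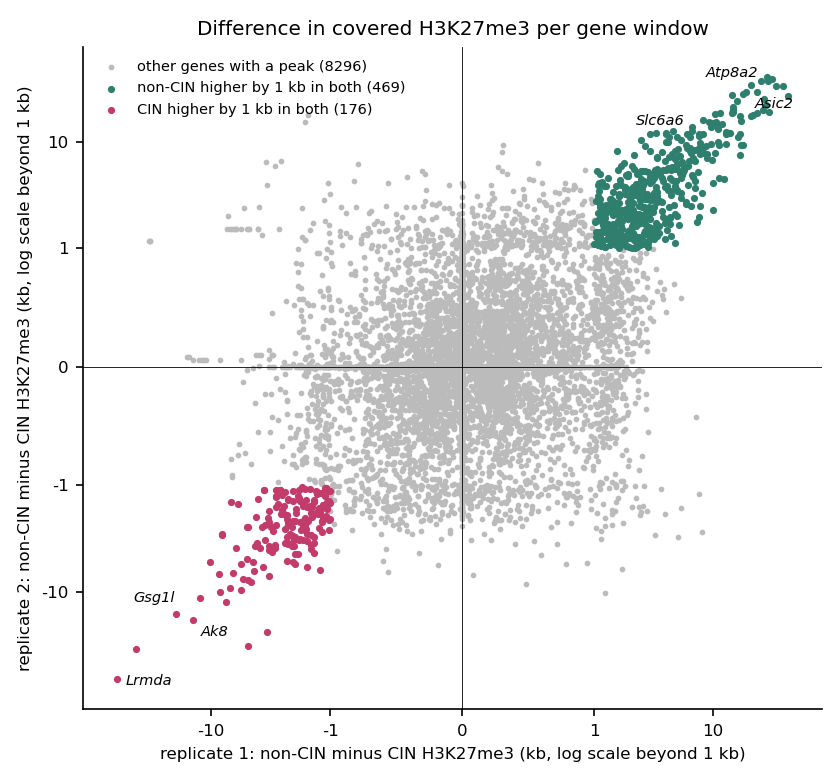
Each point is 1 of the genes with H3K27me3 in any list, placed by the non-CIN minus CIN difference in covered kb in replicate 1 (x axis) and replicate 2 (y axis), linear within 1 kb and logarithmic beyond. The 469 genes at upper right were higher in non-CINs and the 176 at lower left higher in CINs by at least 1 kb in both replicates, with *Atp8a2* and *Lrmda* among the outermost.

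Both non-CIN values lay above both CIN values, by any amount, in 994 genes (11.1%), and the reverse held in 656 (7.34%). Among the 469 genes 271 were separated in this way, and among the 176 genes 110 were. The limma fit on log2(bp + 1000), with replicate as a block, called no gene in either direction at an adjusted p under 0.05 among the 4271 genes averaging at least 1 kb. At an unadjusted p under 0.05 it gave 395 genes higher in non-CINs and 186 higher in CINs, or 280 and 505 after scaling, which moved the median log2 difference of all tested genes from 0.03 to -0.11. With 2 lists against 2, a two-sided exact permutation test cannot go below p = 0.33, or below 0.5 when lists are exchanged only within their replicate pair. The genes below are therefore described by their values in the 4 lists.

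A gap counted in bp is reached more readily in a long window, so the rule itself selects for length. The median window was 140.7 kb for the 469 genes and 95.2 kb for the 176 genes, beside 34.2 kb for all genes with a peak. Toward non-CINs *Atp8a2*, a neuronal phospholipid flippase gene on chromosome 14, held 37611 and 61836 bp in CIN replicates 1 and 2, and in non-CIN replicates 1 and 2 it held 71580 and 95274 bp. The populations did not overlap, and the held gap of 33438 bp was the largest in this direction by the ranking rule. After scaling it was 21628 bp, below *Asic2* (29535 bp), *Thsd4* (26962 bp) and *Erc2* (25743 bp). With RefSeq gene bounds it was 30636 bp, below *Gm20388* (32999 bp) and *Asic2* (31069 bp). With only peaks of −log10 q of at least 4 it was 31796 bp, below *Gm20388* (33108 bp). The difference in *Atp8a2* was spread over the gene. In it, 38 separate stretches, 8477 bp in all, were covered in both non-CIN lists and in neither CIN list. The longest of them was an intronic stretch of 630 bp.

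*Asic2*, an acid-sensing ion channel subunit, held 19073 and 27157 bp (CINs) versus 50142 and 65601 bp (non-CINs). *Erc2*, a scaffold of the presynaptic active zone, held 31027 and 47859 bp against 59766 and 84415 bp. *Thsd4*, which encodes an extracellular matrix protein, held 21329 and 43854 bp against 49632 and 84031 bp. In all of these genes the lowest non-CIN value exceeded the highest CIN value. *Gm20388*, whose annotation runs over 4439.9 kb and across other genes such as *Irf8*, had the second largest gap (32999 bp), but its values overlapped, at 152262 and 202810 bp in the CIN lists versus 190720 and 235809 bp in the non-CIN ones.

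The Slit ligand gene *Slit3* held 44957 and 92818 bp (CINs) versus 68401 and 122097 bp (non-CINs), and the gene of the Slit receptor, *Robo1*, held 34153 and 58876 bp against 54920 and 92618 bp. For both, CIN replicate 2 lay above non-CIN replicate 1, so the gap held only within replicates. The ephrin receptor gene *Ephb1* was separated, at 28717 and 38665 bp against 55381 and 63768 bp, as was the cadherin gene *Cdh23*, at 29796 and 36816 bp against 57809 and 58665 bp. The teneurin gene *Tenm4* overlapped, at 26293 and 92331 bp against 69320 and 118833 bp.

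The remaining loci of these 15 were *Zfhx3* (a homeodomain zinc finger factor), *Tll2* (a tolloid-like protease), *Tgfbr3* (a TGF-beta coreceptor), *Ptprn2* (a dense-core vesicle protein) and *Cradd* (a death-domain adaptor), with held gaps of 25293, 19675, 19023, 18829 and 18563 bp. With RefSeq bounds, an alternative added after the data were seen, the gap of *Zfhx3* was 15853 bp. *Cradd* had 5395 and 20646 bp in the CIN lists versus 28978 and 39209 bp in the non-CIN ones. Its longest stretch found only in non-CINs lay in an intron at chr10:95230157-95231698 (mm10) and measured 1542 bp. Of these 15 loci *Tgfbr3* and *Gm20388* lost most under scaling, to gaps of 2900 and 6276 bp. Scaling also shrank the gaps of *Tll2*, *Tenm4*, *Zfhx3*, *Slit3* and *Cdh23*, to 7764, 12538, 13311, 14828 and 14514 bp.

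**Figure D2:**
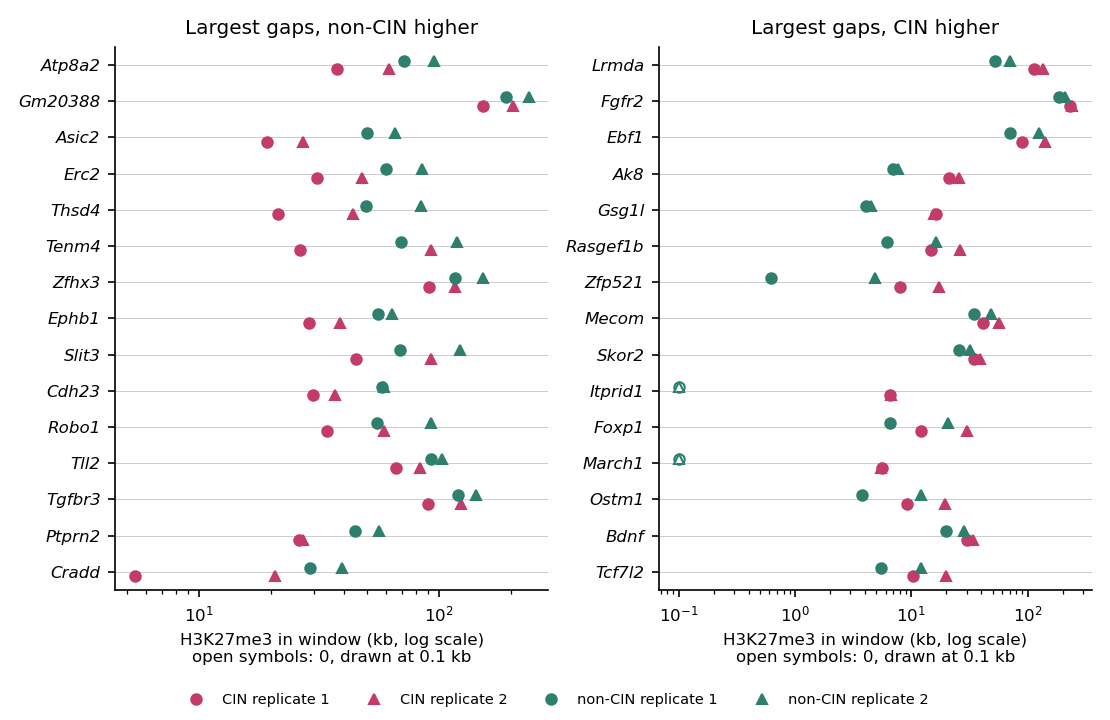
Each row is 1 of the 15 loci with the largest held gap toward non-CINs (left) or CINs (right), and points give the kb of its window under H3K27me3 peaks in each list on a log axis, with open symbols for 0. Within each replicate the non-CIN point lies to the right in the left panel and the CIN point lies to the right in the right panel, and *Itprid1* and *March1* are at 0 in both non-CIN lists.

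Toward CINs, *Lrmda* stood first. This gene, named for a role in melanocyte differentiation, held 114032 and 136633 bp (CINs) versus 51933 and 71116 bp (non-CINs), a held gap of 62099 bp that was larger than any in the other direction. Stretches covered in both CIN lists and neither non-CIN list added up to 37702 bp over 87 places. The longest was intronic, 2453 bp at chr14:22738179-22740631. The TSS was included: within 1 kb of it on either side, 1813 and 2000 bp were covered in CINs versus 0 and 875 bp in non-CINs.

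Several other loci were clearly apart. *Ak8*, an adenylate kinase gene, held 21297 and 25881 bp in the CIN lists versus 6963 and 7715 bp in the non-CIN ones. *Gsg1l*, which encodes an auxiliary subunit of AMPA receptors, held 16440 and 15761 bp against 4072 and 4464 bp. *March1*, a membrane-bound ubiquitin ligase gene, held 5596 and 5470 bp in CINs, and *Itprid1* held 6606 and 6692 bp. Neither had a called peak in a non-CIN list. With only peaks of −log10 q of at least 4, the gaps of *March1* and *Itprid1* toward CINs shrank to 1576 and 528 bp, and that of *Gsg1l* to 6216 bp. At this limit 9 of the 15 loci toward CINs and 1 of the 15 toward non-CINs (*Slit3*, to 12956 bp) shrank by over 1.5 times.

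*Ebf1*, a regulator of B cells and of early neurons, held 90179 and 142363 bp (CINs) versus 70566 and 126403 bp (non-CINs). *Foxp1* held 12073 and 30181 bp against 6497 and 20591 bp, *Mecom* 41565 and 57257 bp against 34585 and 48005 bp, and *Tcf7l2*, a Wnt effector, 10385 and 19807 bp against 5480 and 12019 bp. These 4 overlapped between the populations, and with −log10 q of at least 4 the gaps of *Ebf1*, *Mecom* and *Tcf7l2* shrank from 15960, 6980 and 4905 bp to 6454, 4315 and 1071 bp. The zinc finger gene *Zfp521*, at 8066 and 17392 bp against 621 and 4845 bp, and the corepressor gene *Skor2*, at 34263 and 38906 bp against 25605 and 32131 bp, did not overlap. *Bdnf*, the neurotrophin gene, held 30189 and 33678 bp in the CIN lists versus 19950 and 28445 bp in the non-CIN ones.

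For 3 of the CIN loci the gap depended on the annotated gene bounds. *Fgfr2* (gap of 33930 bp), *Rasgef1b* (8459 bp) and *Ostm1* (5446 bp) have longer gene models in GENCODE than in RefSeq, and the windows of *Fgfr2* and *Ostm1* hold neighbouring genes, *Gpr26*, *Lhpp* and *Pstk* for the former and *Nr2e1* for the latter. With RefSeq bounds the held gap of each was 0. The longest CIN stretch of the *Ostm1* window, 558 bp, lay within *Nr2e1*, a nuclear receptor gene of neural progenitors, which held 2699 and 11048 bp (CINs) versus 836 and 6607 bp (non-CINs).

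The region around the TSS was also counted on its own. Within 1 kb of the TSS, a gap of at least 500 bp in both replicates was counted. It was found toward non-CINs in 26 genes (0.583% of the 4458 genes with a peak there) and toward CINs in 93 (2.09%). This was the reverse of the unscaled balance over whole windows only. Scaling to list length gave 11 and 147 genes here, beside 296 and 564 over whole windows. Equal covered length gave 27 and 162, beside 291 and 314, so both counts then leaned to CINs. Within 5 kb of the TSS a gap of at least 1 kb was found in 117 and 92 genes without scaling. The 1 kb TSS distance and the genes named from it here were chosen after values were seen. Of the summed difference of the 469 genes 2.64% lay within 1 kb of the TSS and 7.28% in the upstream 5 kb, and for the 176 genes these shares were 10.1% and 13.1%.

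At 1250 bp downstream of the TSS, 37.1% and 47.6% of the 469 genes carried H3K27me3 in CINs, compared with 45.8% and 53.1% in non-CINs, whereas 51.7% and 62.5% of the 176 genes did in CINs and 30.7% and 38.6% in non-CINs. At 9750 bp the values were 8.53% and 12.3% against 11.8% and 15.5% for the first set, and 6% and 8.67% against 5.33% and 8% for the second. The windows that chose both sets include the TSS, so these shares only describe where the chosen differences lay. For the 469 genes the replicates of 1 population differed at 1250 bp by more than the populations did within replicate 2.

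**Figure D3:**
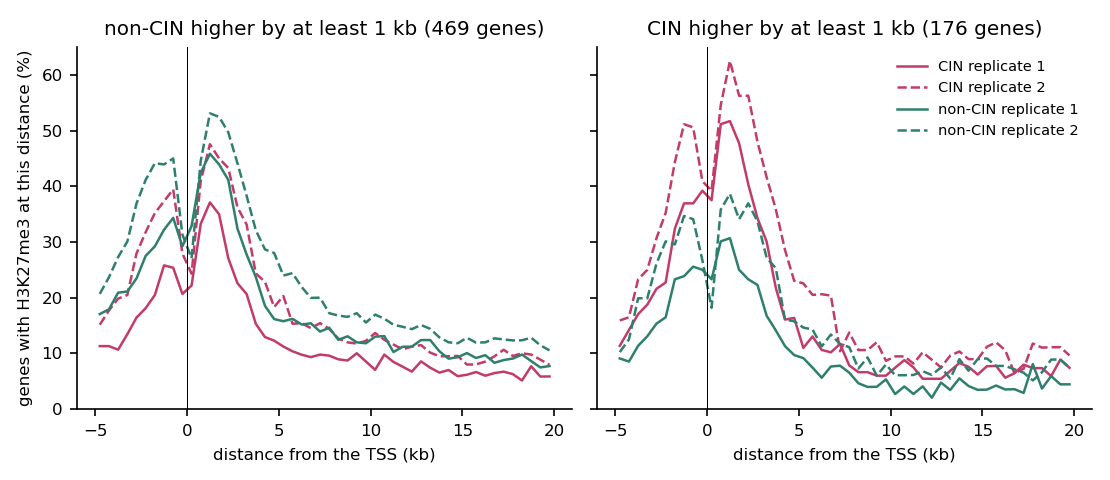
Lines give the percent of genes with an H3K27me3 peak at each distance from the TSS (x axis, kb, positive into the gene) in each of the 4 lists, for genes higher in non-CINs (left) and in CINs (right). In the right panel both CIN lines exceed both non-CIN lines near the TSS, at 51.7% and 62.5% against 30.7% and 38.6% at 1250 bp, and in the left panel the non-CIN line is the higher one within each replicate there.

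The promoters of 7 genes are shown as examples of a difference near the start. They were chosen, after values were seen, from the genes with a TSS gap of at least 500 bp for which a RefSeq promoter (GRCm38.p6, equal to mm10) was given, and each is 300 bases long, from 250 before to 50 after the RefSeq start, written 5′ to 3′ with every CG dinucleotide in capitals. The first 4 were covered in CINs: *Neurod6*, a proneural-type factor of pallial neurons, at chr6:55681214-55681513 (-), *Emx1* at chr6:85187681-85187980 (+), *Rxrg*, a retinoid receptor gene, at chr1:167598112-167598411 (+) and *Tril* at chr6:53820776-53821075 (-).

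Neurod6: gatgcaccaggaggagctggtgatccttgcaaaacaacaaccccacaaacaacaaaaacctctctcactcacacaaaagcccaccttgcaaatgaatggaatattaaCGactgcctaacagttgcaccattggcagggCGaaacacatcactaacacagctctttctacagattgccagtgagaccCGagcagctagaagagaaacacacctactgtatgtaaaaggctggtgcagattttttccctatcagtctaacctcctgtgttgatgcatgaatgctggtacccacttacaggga
Emx1: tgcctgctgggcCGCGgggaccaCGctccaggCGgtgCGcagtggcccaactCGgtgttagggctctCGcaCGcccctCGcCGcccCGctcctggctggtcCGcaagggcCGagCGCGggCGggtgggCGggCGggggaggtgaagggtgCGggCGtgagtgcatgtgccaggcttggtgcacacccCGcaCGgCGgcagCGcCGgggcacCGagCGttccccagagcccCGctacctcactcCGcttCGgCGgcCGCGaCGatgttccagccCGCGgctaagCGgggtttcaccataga
Rxrg: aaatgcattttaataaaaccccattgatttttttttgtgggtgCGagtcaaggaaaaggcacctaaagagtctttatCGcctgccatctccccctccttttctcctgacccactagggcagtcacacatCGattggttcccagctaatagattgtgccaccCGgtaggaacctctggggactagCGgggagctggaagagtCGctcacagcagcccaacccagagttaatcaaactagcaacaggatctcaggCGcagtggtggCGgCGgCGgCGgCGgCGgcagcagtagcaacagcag
Tril: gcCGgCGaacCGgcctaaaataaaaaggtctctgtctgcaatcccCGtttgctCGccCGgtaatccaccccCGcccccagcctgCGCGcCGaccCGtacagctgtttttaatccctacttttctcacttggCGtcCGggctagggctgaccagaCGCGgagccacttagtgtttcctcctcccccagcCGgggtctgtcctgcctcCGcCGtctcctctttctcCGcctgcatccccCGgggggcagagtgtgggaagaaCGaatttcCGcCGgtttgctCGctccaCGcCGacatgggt

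The other 3 were covered in non-CINs: *Chac1* at chr2:119350992-119351291 (+), *Sema4f*, a semaphorin gene, at chr6:82939720-82940019 (-) and *Kcnh8*, a potassium channel gene, at chr17:52602459-52602758 (+).

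Chac1: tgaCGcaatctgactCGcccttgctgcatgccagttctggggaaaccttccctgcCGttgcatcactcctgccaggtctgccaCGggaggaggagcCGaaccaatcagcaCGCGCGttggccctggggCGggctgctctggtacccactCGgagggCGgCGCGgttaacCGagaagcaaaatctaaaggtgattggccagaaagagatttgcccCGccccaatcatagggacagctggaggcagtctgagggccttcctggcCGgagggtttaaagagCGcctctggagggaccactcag
Sema4f: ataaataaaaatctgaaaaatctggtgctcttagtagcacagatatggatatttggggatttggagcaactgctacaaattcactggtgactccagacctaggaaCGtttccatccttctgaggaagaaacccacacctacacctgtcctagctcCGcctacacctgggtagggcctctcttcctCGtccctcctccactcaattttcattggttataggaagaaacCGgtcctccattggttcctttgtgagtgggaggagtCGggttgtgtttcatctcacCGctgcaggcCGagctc
Kcnh8: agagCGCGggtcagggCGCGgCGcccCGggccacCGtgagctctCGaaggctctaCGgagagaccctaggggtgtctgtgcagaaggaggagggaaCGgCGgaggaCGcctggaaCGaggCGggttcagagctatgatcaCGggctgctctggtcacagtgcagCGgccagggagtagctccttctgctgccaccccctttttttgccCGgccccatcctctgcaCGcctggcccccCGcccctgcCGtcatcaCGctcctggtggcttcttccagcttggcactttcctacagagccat

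Of the 300 bases of *Neurod6*, 212 and 300 were under H3K27me3 peaks in the CIN replicates and none in the non-CIN replicates. *Emx1* and *Tril* were covered over all 300 bases in both CIN lists and over 0 in both non-CIN lists, and *Rxrg* over 213 and 300 against 0. Within 1 kb of the GENCODE TSS, however, the non-CIN lists covered 1445 and 913 bp of *Emx1*, 0 and 676 bp of *Tril* and 0 and 634 bp of *Rxrg*. In the reverse direction, *Chac1* had 0 bases covered in both CIN lists and 300 in both non-CIN lists, *Kcnh8* 0 and 29 against 300 in each, and *Sema4f* 0 in both against 177 and 284. The promoters held 3 (*Neurod6*), 37 (*Emx1*), 13 (*Rxrg*), 26 (*Tril*), 17 (*Chac1*), 7 (*Sema4f*) and 21 (*Kcnh8*) CG dinucleotides, beside a median of 7 over all 32851 promoters of this length, of which 43.5% held at least 10. Both CpG-rich and CpG-poor starts thus occurred among them. The RefSeq start of *Emx1* lay 493 bp from the GENCODE TSS and the others within 22 bp.

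In bp covered within 1 kb of the TSS, other genes apart at the start were *Smad6*, an inhibitor of BMP signalling, with 913 and 1324 bp in CINs, the growth factor gene *Ccn2*, with 881 and 1463 bp, and *Id1*, with 508 and 688 bp, each at 0 in both non-CIN lists. Toward non-CINs, *Chga*, the chromogranin A gene, had 796 and 615 bp and *Fam155a*, a NALCN channel subunit gene, 1456 and 637 bp, with 0 in both CIN lists.

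Genes were also ranked by the gap as a percent of the window. Toward CINs, *Ccnd1*, the cyclin D1 gene of the G1 phase, held 5006 and 5297 bp in the CIN lists versus 0 and 404 bp in the non-CIN ones. A stretch of 2884 bp upstream of the gene, chr7:144940117-144943000, was covered in both CIN lists and in neither non-CIN list, and within 1 kb of the TSS the values were 1721 and 1694 bp against 0 and 293 bp. *Tril*, which encodes a Toll-like receptor accessory protein, held 3531 and 4710 bp against 0 and 1466 bp. The Notch effector gene *Hes1* held 4573 and 6120 bp against 2409 and 3266 bp.

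In the same ranking, *Sox21* held 5570 and 5369 bp (CINs) versus 3322 and 3180 bp (non-CINs), and *Otx1*, a factor of deep-layer and progenitor cells, held 8440 and 11482 bp against 5363 and 7223 bp. *Dmrta2* and *Zic2* had gaps of 2387 and 1964 bp, and the potassium channel subunit gene *Kcns2* had one of 2241 bp. *Gm10300*, a short predicted gene overlapping *Epb41*, held 1553 and 3842 bp against 0 and 483 bp. None of these genes overlapped between populations.

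Toward non-CINs the same ranking was led by *Chac1*, which encodes an enzyme of glutathione breakdown, with 1725 and 3702 bp in the CIN lists versus 5087 and 6410 bp in the non-CIN ones. It was followed by *Ccn5*, at 2021 and 6076 bp against 6852 and 10337 bp, and the matrix protease gene *Mmp2*, at 9485 and 15680 bp against 18382 and 22707 bp. *Syne3*, *Lgals12*, *Ildr2*, *Rgs16* and *Tll2* had gaps of 17240, 2819, 11660, 1655 and 19675 bp. *Cmtm7* (gap of 4464 bp) was the only one of these 10 genes whose values overlapped, with 23590 bp in CIN replicate 2 and 23372 bp in non-CIN replicate 1.

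The fixed gene lists were described by the same gap, to be read beside the 5.25% and 1.97% of all genes with a peak that were higher in non-CINs and in CINs, or 3.31% and 6.31% after scaling. Scaling multiplies each value by a factor of its list, so it moves a gene with more H3K27me3 by more bp. In several lists the share higher in CINs after scaling lay above 6.31%, and these scaled counts are given as a description. Of 25 GABAergic regulators 23 held H3K27me3, and 2 were higher in non-CINs (8.70%, *Prox1* among them) and 1 in CINs (4.35%, *Ebf1*), or 1 and 8 after scaling. *Dlx1*, a homeobox regulator of interneurons, held 10607 and 10667 bp in CINs and 10869 bp in each non-CIN list, where its whole window was covered, and scaling put it higher in CINs by 963 bp. *Dlx2* held 6626 and 7709 bp against 7845 and 7910 bp. The median log2 difference of the 23 tested genes was 0.01, beside 0.03 over all tested genes.

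Of 17 genes for GABA synthesis, transport and receptors, 14 held H3K27me3, 3 were higher in non-CINs (21.4%, beside 5.25% of all genes) and none in CINs, or 2 and none after scaling. *Gad1*, the GABA-synthesizing enzyme whose locus carries the GFP allele, held 12577 and 14240 bp (CINs) versus 14825 and 15441 bp (non-CINs). Its values did not overlap, with a gap of 1201 bp that became 0 under scaling. *Gad2*, the other such enzyme, had 9626 and 12257 bp against 12390 and 12469 bp. *Gabbr2*, a metabotropic GABA receptor subunit gene, held 25238 and 22403 bp against 36592 and 41101 bp, and *Abat*, the GABA transaminase gene, 2851 and 7687 bp against 8221 and 12236 bp.

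The CIN markers kept H3K27me3 in the CIN lists beside H3K27ac. For the 8 markers called for H3K27ac (*Gad1*, *Gad2*, *Slc32a1*, *Dlx1*, *Dlx2*, *Dlx5*, *Dlx6* and *Sp9*), between 75.5% and 100% of the acetylated base pairs in a CIN list also lay under an H3K27me3 peak of the same replicate. Over the genome that share was 1.85% and 2.71% in the CIN lists. It was as high at markers of other cells in the same lists, at 100% in both for *Olig2* and *Emx1* and 92.9% and 100% for *Neurod6*, and at *Gad2* in both non-CIN lists (100%, of 215 and 652 acetylated bp), so the overlap was not particular to CIN markers. *Dlx6*, for example, had 9806 and 8843 acetylated bp in CINs, of which 9806 and 8840 bp were also under H3K27me3. Whether both marks sat in the same cells cannot be told from sorted populations, and the share of other cells in the sort was not tested.

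Of 22 interneuron subtype markers 19 held H3K27me3, and 15 of these had no gap. The gap was toward non-CINs in *Reln* and *Pnoc* (10.5%, beside 5.25% of all genes) and toward CINs in *Kit* and *Chat* (10.5%, beside 1.97%), or in none and 2 after scaling. *Pnoc*, the prepronociceptin gene, held 3807 and 7121 bp in the CIN lists versus 6557 and 8505 bp in the non-CIN ones. *Reln* held 16914 and 24573 bp against 18703 and 30870 bp. *Kit* held 8227 and 11982 bp (CINs) versus 3252 and 9520 bp (non-CINs). The values of these 3 genes overlapped between populations. With only peaks of −log10 q of at least 4 the gaps of *Pnoc* and *Kit* were 0, and that of *Chat* fell from 1412 to 563 bp. At equal covered length the gap of *Pnoc* was also 0. The peptide gene *Sst*, at 3401 and 3835 bp against 3738 and 4084 bp, and *Pvalb*, at 4185 and 3595 bp against 4691 and 3630 bp, stayed within 1 kb.

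The pallial regulators, factors of the glutamatergic lineage, had gaps in both directions. Of 28 genes 27 held H3K27me3, 6 were higher in CINs (22.2% of those with a peak) and 2 in non-CINs (7.41%), or 13 and 2 after scaling. *Emx1*, a homeobox factor of cortical progenitors, held 10144 and 12189 bp in the CIN lists versus 8184 and 9126 bp in the non-CIN ones, and *Neurod6* held 1805 and 3171 bp in CINs with no called peak in non-CINs, a gap that shrank to 269 bp with −log10 q of at least 4. *Emx2* had 7266 and 10789 bp against 5892 and 7282 bp, *Lhx2* 16199 and 24027 bp against 12530 and 18150 bp, both with overlapping values, and *Tle4*, a corepressor of deep-layer neurons, 3890 and 9289 bp against 1933 and 3811 bp.

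*Bcl11b*, a zinc finger factor of subcerebral projection neurons that interneurons also use, went the other way, at 5575 and 17189 bp (CINs) versus 19133 and 29234 bp (non-CINs), as did the upper-layer factor *Cux2*, at 2061 and 6276 bp against 4822 and 9188 bp. The values of *Cux2* overlapped, and its gap of 2761 bp was 975 bp at equal covered length and 672 bp with −log10 q of at least 4. Of *Bcl11b*'s TSS region 12 and 577 bp were covered in CINs versus 1591 and 1147 bp in non-CINs. *Fezf2* and *Tbr1*, chosen after their values were seen as core factors of the list, had near-equal values: *Fezf2* held 10889 and 11096 bp in the CIN lists versus 10880 and 11096 bp in the non-CIN ones, and *Tbr1* 11710 and 12355 bp against 11987 and 12199 bp.

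Of 11 astrocyte genes with H3K27me3, *Hes1* and *Gja1* had a gap toward CINs (18.2%), and of 8 oligodendrocyte genes *Olig2* did (12.5%), beside 1.97% of all genes, or 2 and 4 after scaling. *Gja1*, the connexin 43 gene, held 1562 and 2838 bp in CINs and no called peak in non-CINs, and its gap was 0 with only peaks of −log10 q of at least 4. The oligodendrocyte factor *Olig2* held 7212 and 7287 bp against 5641 and 5691 bp, and *Olig1*, at 4884 and 4768 bp against 4057 and 3980 bp, was apart by less than 1 kb. *Gfap* had 736 and 2376 bp in CINs against 400 and 516 bp, and *Aldh1l1* had 370 bp in non-CIN replicate 1 and none elsewhere. No microglial gene of 8 and no endothelial gene of 10 with H3K27me3 reached the gap, although 3 endothelial genes did toward CINs after scaling.

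Of 10 glutamatergic machinery genes with a peak, *Grin2a*, an NMDA receptor subunit gene, was higher in CINs, at 5459 and 6381 bp against 3213 and 4153 bp, and 3 were after scaling. The vesicular transporter genes *Slc17a7*, at 10193 and 10883 bp (CINs) versus 10039 and 10657 bp (non-CINs), and *Slc17a6*, at 14413 and 15235 bp against 11657 and 14782 bp, overlapped. Among 14 genes of PRC2 and other H3K27 enzymes 3 held H3K27me3, and *Jarid2*, a PRC2 cofactor, had a gap toward non-CINs, with 477 and 262 bp against 1846 and 1445 bp. This gap of 1183 bp was 970 bp after scaling and 0 at equal covered length or with −log10 q of at least 4. *Ezh2* and *Ezh1* had no called peak.

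Homeobox families are long known as Polycomb targets. All 39 *Hox* genes carried H3K27me3, and none had a gap, beside 5.25% and 1.97% of all genes with a peak that did. After scaling, 15 were higher in CINs. Their median covered length was 8389.5 bp. The rule selects for long windows and window length was not matched here, so these counts of 0 only describe the families. None of 14 *Nkx*, 12 *Irx* and sine oculis-type homeobox, 43 clustered protocadherin, 21 keratin or 83 olfactory and vomeronasal receptor genes with a peak reached the gap either, with 4, 7, 0, 0 and 2 of them higher in CINs after scaling. Of 9 *Pax* genes *Pax5*, *Pax8* and *Pax7* were higher in non-CINs and *Pax3* in CINs, or 1 and 5 after scaling. *Pax5* held 43558 and 58705 bp in the CIN lists versus 56336 and 68199 bp in the non-CIN ones, and *Pax3*, covered over most of its 100.9 kb window, 81384 and 85505 bp against 76454 and 83041 bp, a gap of 2464 bp that was 373 bp with −log10 q of at least 4.

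In other families single genes passed the gap, at shares to be read beside the same 5.25% and 1.97%. They were *Foxo6* and *Foxp1* of 34 *Fox* genes with a peak, *Sox30* and *Sox21* of 14 *Sox* genes, *Lhx2* of 8 *Lhx* genes, *Tbx4* of 14 *Tbx* genes and *Wnt5a* of 19 *Wnt* genes. After scaling, 7, 4, 7, 8 and 7 genes of these families were higher in CINs and 1, 1, 0, 0 and 0 in non-CINs. *Wnt5a* held 10614 and 12046 bp (CINs) versus 12381 and 13287 bp (non-CINs), with a gap of 1241 bp that was 136 bp at equal covered length, and the gap of *Tbx4* turned toward CINs under scaling. Of 79 potassium channel genes of the *Kcn* family 2 were higher in non-CINs and 3 in CINs, or 2 and 6 after scaling. *Kcnj3*, an inward rectifier, held 1109 and 1246 bp in the CIN lists versus 3469 and 3000 bp in the non-CIN ones, and its TSS region was covered in non-CINs only, at 1640 and 562 bp. Its gap of 1754 bp was 369 bp at equal covered length.

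Of 199 solute carriers with a peak, 7 were higher in non-CINs and 2 in CINs, or 5 and 11 after scaling. *Slc6a6*, the taurine transporter gene, held 971 and 1892 bp (CINs) versus 9186 and 13743 bp (non-CINs), and the zinc transporter gene *Slc39a10* 911 and 719 bp against 2991 and 6605 bp. Toward CINs, *Slc39a8* held 1609 and 2761 bp against 0 and 425 bp, a gap that was 0 with −log10 q of at least 4. None of these 3 overlapped between the populations.

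H3K27ac, which the ranking did not use, was not called in most genes with a gap, at 281 of 348 tested genes higher in non-CINs and 108 of 118 higher in CINs. Where it was called, it was mostly higher in the population with less H3K27me3. In the same windows limma called 219 of 10754 tested genes higher in CINs (2.04%) and 52 higher in non-CINs (0.484%) at an adjusted p under 0.05, or 898 and 946 when H3K27ac values were scaled to list length. Among the 469 genes with more H3K27me3 in non-CINs, 348 could be tested, and 67 (19.3%) had more H3K27ac in CINs and none in non-CINs. Among the 176 genes with more H3K27me3 in CINs, 118 could be tested, and 8 (6.78%) had more H3K27ac in non-CINs and 2 (1.69%) in CINs. Genes with a mean of at least 1 kb of H3K27me3 and no such gap gave 4.37% and 0.693% of 1443 tested.

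Of genes with windows of at least 50 kb, 19.6% of 306 tested genes higher in non-CINs had more H3K27ac in CINs, against 5.05% of 832 genes without a gap. Of 82 such long genes higher in CINs, 4 (4.88%) had more H3K27ac in non-CINs and 2 (2.44%) in CINs, against 0.721% and 5.05% of those without a gap. Scaling H3K27ac gave 182 and 6 calls among the genes higher in non-CINs and 6 and 46 among those higher in CINs, each time CIN calls first. The H3K27ac calls rested on all 4 lists and on the replicate block: without the block 7 genes, 1 of the 67 (*Gad1*) among them, were called in CINs and none in non-CINs, and leaving out any 1 of the CIN or non-CIN replicates, which also drops the block, gave 0 calls by limma in both directions. Of the 67 calls, 25 were kept with merged peaks and 17 with −log10 q of at least 4. At an unadjusted p under 0.05 the fits without 1 list gave 232 to 1018 genes higher in CINs and 152 to 828 higher in non-CINs.

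**Figure D4:**
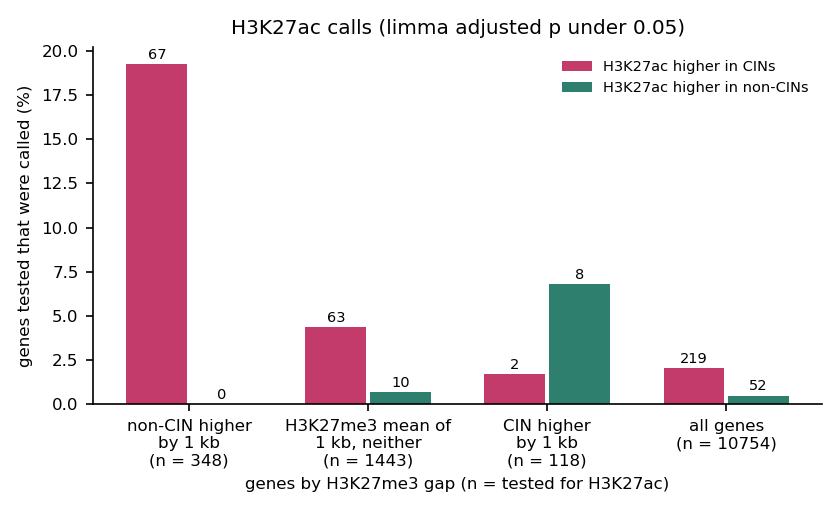
Bars give the percent of tested genes called by limma for H3K27ac at an adjusted p under 0.05, in genes with a gap of at least 1 kb of H3K27me3 toward non-CINs, without a gap, with a gap toward CINs, and in all genes, with the number of calls above each bar. The bar for more H3K27ac in CINs is 19.3% in the first set and 1.69% in the third, and the bar for more H3K27ac in non-CINs is 0 and 6.78%.

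The genes of the 67 named by the rules included *Gad1*, which had 11344 and 9187 acetylated bp in CINs versus 219 and 0 bp in non-CINs (log2 difference of non-CIN minus CIN -3.34 ± 0.10 SE, limma adjusted p = 0.00234). *Bcl11b* had 20159 and 8883 bp against 2325 and 981 bp (-2.49 ± 0.15 SE, limma adjusted p = 0.0101). *Slc6a6* had 6231 and 3729 bp against 1347 and 1065 bp (-1.41 ± 0.14 SE, limma adjusted p = 0.0219). In each, both CIN values were above both non-CIN values for H3K27ac, while H3K27me3 was the reverse.

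*Pnoc*, with 3342 and 1845 acetylated bp in CINs and none in non-CINs, *Reln* (5234 and 3671 bp against 2452 and 1641 bp), *Foxo6* (5486 and 2376 bp against 1638 and 205 bp) and *Rgs16*, a regulator of G protein signalling (2929 and 2168 bp against 219 and 0 bp), were also called, with limma adjusted p of 0.0219, 0.036, 0.0142 and 0.0127. Further genes of the 67, named after their values were seen, included the neuron-specific tubulin gene *Tubb3*, the RNA-binding factor gene *Celf4* and the synaptic scaffold gene *Shank1*. *Celf4* held 2066 and 8292 bp of H3K27me3 in CINs versus 8215 and 14236 bp in non-CINs, with 42434 and 20919 bp of H3K27ac in CINs versus 6612 and 3742 bp in non-CINs (limma adjusted p = 0.0134). None of the 15 loci with the largest gap toward non-CINs had an H3K27ac call, with 14 tested and a lowest limma adjusted p of 0.0616 (*Asic2*). *Atp8a2* had 6461 and 2386 acetylated bp in CINs versus 1920 and 2546 bp in non-CINs (limma adjusted p = 0.386).

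The 8 genes with more H3K27me3 in CINs and more H3K27ac in non-CINs were *Rxrg*, *Nebl*, *Sp5*, *Heyl*, *Gsg1l*, *Mfhas1*, *Samd5* and *Ajuba*. With merged peaks 1 of the 8 calls was kept (*Heyl*), and with −log10 q of at least 4 or without the block none was. *Gsg1l* had 2614 and 2482 acetylated bp in CINs versus 8825 and 7602 bp in non-CINs (log2 difference 1.37 ± 0.13 SE, limma adjusted p = 0.0196). *Heyl*, a Notch target, had 1233 and 727 bp against 3669 and 2633 bp (1.07 ± 0.10 SE, limma adjusted p = 0.0179). The 2 genes going the other way were *Arhgap15* and *Ano4*, where both marks were higher in CINs within each replicate. Of the 15 loci with the largest gap toward CINs, 11 were tested and *Gsg1l* alone was called. *March1* had more of both marks in CINs, with 6777 and 4633 acetylated bp against 3139 and 3435 bp (limma adjusted p = 0.143). *Ccnd1* (2364 and 2469 bp against 4562 and 4295 bp, limma adjusted p = 0.0589) and *Gja1* (2902 and 2433 bp against 5044 and 4627 bp, limma adjusted p = 0.0604) did not pass, although their values did not overlap. *Otx1* had 13134 acetylated bp in each of the 4 lists, its whole window.

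**Figure D5:**
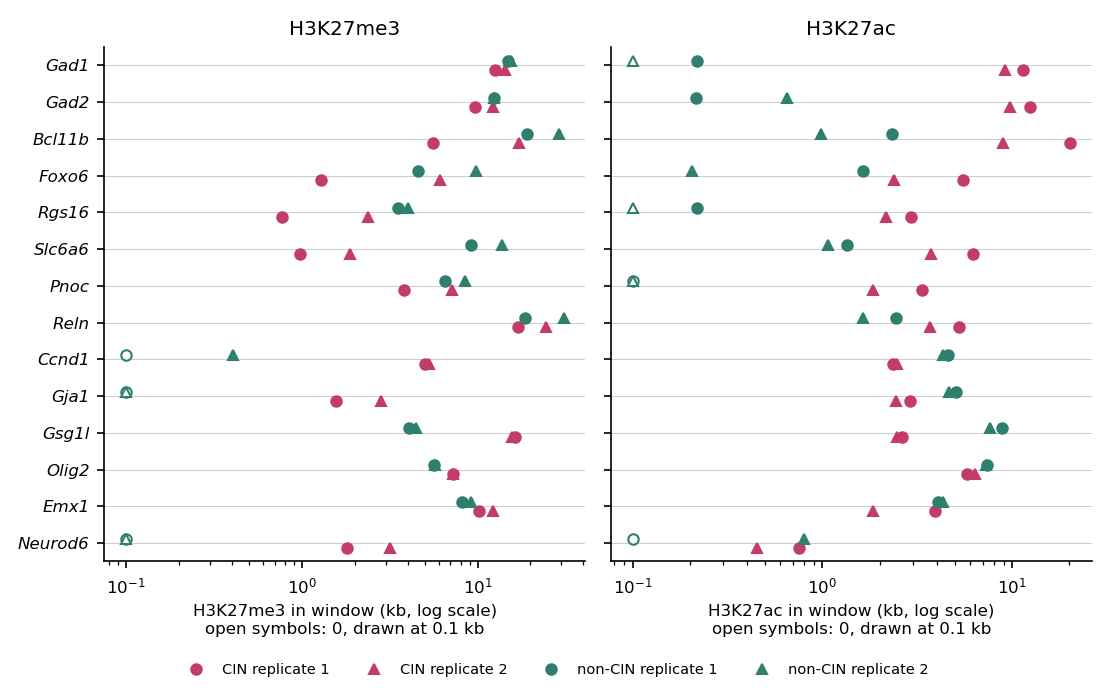
For 14 genes named in the text, points give the kb of the window under H3K27me3 peaks (left) and H3K27ac peaks (right) in each of the 4 lists of that mark on log axes, with open symbols for 0. *Gad1* to *Reln* have H3K27me3 further right in non-CINs and H3K27ac further right in CINs within each replicate. *Ccnd1*, *Gja1*, *Gsg1l*, *Olig2* and *Emx1* show the reverse. The H3K27me3 gap of *Gad2* was 212 bp, under the 1 kb limit. After scaling, the gaps of *Gad1*, *Gad2* and *Reln* were 0 and that of *Pnoc* was 410 bp.

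The 1 kb gap has no natural step. Just inside it toward non-CINs were *Cgnl1* and *Cnga1*, with gaps of 1003 and 1000 bp, and just outside *Slc9a2* and *Amer3*, with 998 and 991 bp. Toward CINs *Alox12e* (2309 and 3473 bp in non-CINs against 3311 and 4939 bp in CINs) and *Dmkn* (482 and 1298 bp against 1490 and 2428 bp) were just inside, and *Lmo1* and *Sema5b*, with gaps of 998 and 997 bp, just outside. At a gap of 500 bp there were 887 and 449 genes, and at 2 kb 245 and 63.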

How the data were processed

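Native ChIP-seq of H3K27me3 and H3K27ac was performed by the authors on FAC-sorted CINs and non-CINs in 2 independent replicate experiments, with input controls. Reads were aligned to mm10 with BWA (0.7.15 per the labels) and broad peaks were called with MACS2 (2.2.7 per the labels; the study's methods give another version) for each replicate against its input. Each of the 8 deposited lists gives peak positions, a score from the authors' peak caller, a fold enrichment ratio over input, and −log10 p-value and −log10 q-value columns. Of the deposited values, positions and −log10 q were used here. The 4 input samples entered only through peak calling, and read depth was not used, so no counting interval is given.

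Overlapping peaks of a list were joined and their base pairs summed in windows of GENCODE vM21 basic protein-coding genes. TSS values cover 1 kb on either side. Lists were compared within replicate number, since the design pairs both populations in each experiment; deviations of same-numbered lists from their group means correlated at 0.779 for H3K27me3 and 0.456 for H3K27ac across genes. limma 3.58.1 (R 4.3.3, trended eBayes, Benjamini-Hochberg adjustment) was fitted to log2(bp + 1000) for genes with a mean of at least 1000 bp, with replicate as a block and 1 residual degree of freedom, and was tested on simulated data. The summing code, in Python 3.11.15, was checked against position-by-position counting. Scaling multiplied each value by the mean covered length over the length of its list.

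Named genes were the 15 loci with the largest held gap in each direction (overlapping windows count as 1 locus), the 10 genes with the largest gap as a percent of the window, the first 2 genes of each fixed list and up to 4 in each direction with a gap of at least 1 kb, and those next to the 1 kb limit; not every gene that these rules name is reported here. The comparison, the lists and the rules were chosen with earlier results of these data known. A RefSeq promoter was matched for about 74% of genes with H3K27me3, so no comparison of CpG content over gene sets was made.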

Additional observations from a re-analysis of the deposited data

How the results depend on the processing

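The count of genes with more H3K27me3 in non-CINs (469) was 291 at equal covered length, 296 when scaled to list length, 117 within 5 kb of the TSS, 887 at a gap of 500 bp and 245 at 2 kb. The count of genes with more in CINs (176) was 314, 564, 92, 449 and 63 under the same settings. Merging peaks within 500 bp, a −log10 q of at least 4, the gene body alone, RefSeq bounds (added after seeing the data) and counting loci once kept both counts within 1.5 times, but not all genes: with −log10 q of at least 4, 322 of the 469 and 85 of the 176 genes kept the gap (2 of the 176 changed sign), with the gene body alone 366 and 122, with merged peaks 425 and 158 and with RefSeq bounds 447 and 168. Of the 469 genes, 11 changed sign when scaled, 5 at equal length and 20 within 5 kb of the TSS, where 4 of the 176 did. Using 1 replicate alone gave 962 to 964 and 495 to 589 genes, because agreement was then not required. Dropping the replicate pairing (no replicate block) gave 166 and 75. The limma counts for H3K27me3 were 0 under every setting, including those without the block.

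For H3K27ac, the 219 calls in CINs became 7 with no replicate block, 898 scaled, 52 with −log10 q of at least 4 and 63 with merged peaks, and the 52 calls in non-CINs became 0, 946, 4 and 1, and 82 with a pseudocount of 200 bp. Leaving out any 1 list without the block gave 0 to 0 calls in both directions. The cause was not tested.

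Within 1 kb of the TSS, where the settings were added after seeing the data, the 26 genes higher in non-CINs became 41 with merged peaks, 41 with −log10 q of at least 4, 11 scaled, 13 with no replicate block and 145 at a gap of 250 bp, and 124 to 283 with 1 replicate. The 93 higher in CINs became 162 at equal length, 147 scaled, 291 at 250 bp, and 291 to 348 with 1 replicate.

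Of 89 named genes with a gap of at least 1 kb, 77 kept it when scaled, 75 at equal length, 69 with −log10 q of at least 4, 47 with no replicate block and 35 within 5 kb of the TSS, where 24 fell to 0. Direction reversed for *Tbx4* when scaled (-487 bp) and for *Rasgef1b* within 5 kb of the TSS (569 bp toward non-CINs). Read depth was not used, so a peak missing from 1 list may reflect its depth.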

Other observations

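Genes with a gap were found on every autosome and on X. The shares by chromosome are to be read beside 5.25% and 1.97% of all genes with a peak, or 3.31% and 6.31% after scaling. They were not scaled to list length, and those given are the highest and lowest among the autosomes and X. On chromosome 19, 9.79% of 286 genes with H3K27me3 were higher in non-CINs and 1.40% higher in CINs. On X the shares were 1.98% and 1.59% of 252 genes. On chromosome 14, which carries *Lrmda* and *Atp8a2*, the shares were 6.54% and 4.25% of 306 genes, and on chromosome 12 6.53% and 0.344% of 291.

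Both marks overlapped more in the CIN lists. Of the base pairs under H3K27me3, 3.02% and 2.5% also lay under H3K27ac of the same replicate in CINs, 1.04 and 1.1 Mb, against 1.81% and 1.33% in non-CINs, 0.713 and 0.662 Mb. With 2 lists on each side this difference can only be described.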
